A study of Mus musculus with 8 samples.

Results

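Transcripts of 10 genes of autophagy and mitophagy were measured in the hindlimb muscle of immobilized mice. The members were chosen by name: Ulk1, Becn1, Atg7, Map1lc3a, Map1lc3b, Gabarapl1, Sqstm1, Bnip3, Bnip3l and Tfeb. All 10 were found among the 55487 genes of the deposited values, and all 10 were among the 15135 genes that had at least 10 counts in every library. The 8 mice formed 1 group, male C57BL/6J mice aged 10 weeks whose 2 hindlimbs were held in casts for 8 days. Each mouse was given K14Q MOTS-c at 15 mg/kg/day, split into 2 intraperitoneal injections per day. MOTS-c is a short peptide encoded in mitochondrial DNA, and K14Q MOTS-c is a form in which a lysine is replaced by a glutamine. The sample labels name the muscle as vastus lateralis, whereas the methods and the design text name gastrocnemius. Untreated, uncast and unmodified MOTS-c libraries were not analysed here, so every mouse shared both the cast and the peptide, and no value below is an effect of either.

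Macroautophagy encloses cytoplasm in a double membrane, the autophagosome, and delivers it to the lysosome. The ULK1 kinase starts this process, a lipid kinase complex containing Beclin 1 (Becn1) marks the growing membrane, and ATG7 activates small ubiquitin-like proteins of the ATG8 family (the LC3 and GABARAP subfamilies) for attachment to it. Cargo receptors such as p62 (Sqstm1) bind both the cargo and ATG8 proteins, whereas BNIP3 and BNIP3L sit on the outer membrane of mitochondria and call autophagosomes to them, which is one form of mitophagy. TFEB is a transcription factor of lysosomal and autophagy genes. In muscle, forkhead (FOXO) factors are known regulators of several autophagy genes and of the ubiquitin ligases of atrophy.

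Promoter sequences are shown for 2 members, Gabarapl1 because it differed most between mice and Bnip3 because it carried the best-known letters of a TFEB site and varied with Gabarapl1. Both windows cover 100 bases, from 150 to 51 bases before the start of the RefSeq transcript, on GRCm38.p6, and are written 5′ to 3′ along the gene. The capitals mark CACGTG, the centre of the element that TFEB binds. These letters read the same on both strands and contain CGTG, which is also the core of the hypoxia response element.
Bnip3, chr7:138909557-138909656, minus strand: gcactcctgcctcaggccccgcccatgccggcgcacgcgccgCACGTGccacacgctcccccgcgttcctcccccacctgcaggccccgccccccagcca
Gabarapl1, chr6:129533042-129533141, plus strand: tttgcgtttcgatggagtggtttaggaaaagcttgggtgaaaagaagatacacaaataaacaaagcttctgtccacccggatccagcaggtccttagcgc
The Bnip3 window held 79.0% G or C and no annotated exon, and its motif began 108 bases before the start. The Gabarapl1 window held 46.0% G or C and overlapped an exon of 1700101I11Rik, a transcript of the opposite strand. Promoters were found in RefSeq for 7 of the 10 members. These 7 members had 9 promoters. CACGTG was present in 2 of the 9, those of Bnip3 and Atg7, against 7.15% of all 32851 promoters of 300 bases. The RefSeq start of Atg7 lay 9066 bases from the nearest start of a GENCODE transcript of that gene, so its match is less certain and its sequence is not shown. The forkhead letters GTAAACA, searched on both strands as this exact form, were present in 0 of the 9 promoters of members and in 3.65% of all promoters. Other forms of the forkhead letters were not searched. The Gabarapl1 window above holds ataaaca, which differs from GTAAACA in its first letter. A match is a description of the letters and not of binding.

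The libraries held between 23985356 and 33012497 recovered counts, with a median of 29419182.5. The share of counts taken by the 10 most abundant genes ranged from 18.8% to 26.2% between mice. Counts of any 2 libraries differed by more than sampling noise, with a chi-square per degree of freedom between 13.6 and 98.5 over the 28 pairs. All 8 of 8 skeletal muscle markers were present in every library, Acta1, Ckm and Myh4 among them. Every value below is a normalized count, that is, a count divided by the size factor that the authors set for its library. In bulk muscle, fewer cells of a type and less RNA per cell cannot be told apart.

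Ulk1, the kinase that starts autophagosome formation, lies on chromosome 5 (GRCm38, 110784488 to 110810097, minus strand). Its normalized count was lowest at 2189 in mouse 7 and highest at 3287 in mouse 8, with a median of 2618 and a mean of 2634 ± 368 (SD, n = 8). Mice 4 and 8 were the highest for Ulk1, at 3007 and 3287 normalized counts, and the other 6 mice lay between 2189 and 2674.

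Becn1, the Beclin 1 gene, lies on chromosome 11 (101285952 to 101302286, minus strand). Its normalized count ran from 1267 in mouse 3 to 1661 in mouse 8, with a median of 1413 and a mean of 1431 ± 128 (SD, n = 8). It had the smallest coefficient of variation of the 10 members, 8.97%. Cntd1 on the opposite strand overlaps 43.9% of its exon bases, and since the use of strand in counting is not given in the sources used here, reads in that overlap could not be assigned. Cntd1 itself had a mean of 16.6 normalized counts. Of the 50-base stretches in Becn1 transcripts, 36.8% also occur in transcripts of 8 other genes. These include Cntd1, Phkg1 at a mean of 6000 and Mrps17 at 722 normalized counts, and the part shared with each is not given here.

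Atg7, the enzyme that activates the ATG8 proteins, lies on chromosome 6 (114643097 to 114860614, plus strand). It ran from 285 normalized counts in mouse 7 to 408 in mouse 3, with a median of 325 and a mean of 334 ± 47.1 (SD, n = 8). Its counting error alone, 5.48%, was the largest of the members and still below its coefficient of variation of 14.1%.

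The 3 genes of ATG8 proteins differed in how far they varied. Map1lc3a, the LC3A gene on chromosome 2 (155276297 to 155278073, plus strand), ranged from 2947 normalized counts in mouse 2 to 5136 in mouse 8, with a median of 3800.4 and a mean of 3919 ± 751 (SD, n = 8). Map1lc3b, the LC3B gene on chromosome 8 (121590361 to 121598760, plus strand), ranged from 4858 in mouse 7 to 7386 in mouse 3, with a median of 5667 and a mean of 5967 ± 838 (SD, n = 8). Gabarapl1, of the GABARAP subfamily, lies on chromosome 6 (129533160 to 129542346, plus strand).

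Gabarapl1 was the most variable member. Its normalized counts in mice 1 to 8 were 1444, 1573, 3020.0, 3172, 2179.8, 1698, 1511 and 2644, with a median of 1939 and a mean of 2155 ± 706 (SD, n = 8). Mice 3, 4 and 8 were high, mice 1, 2, 6 and 7 were low, and mouse 5 lay between them. The highest mouse was 2.20 times the lowest, and the coefficient of variation was 32.8% against a counting error of 2.15%. The opposite-strand gene 1700101I11Rik overlaps 28.3% of its exon bases and had a mean of 11.2 normalized counts.

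Sqstm1, the gene of the cargo receptor p62, lies on chromosome 11 (50199366 to 50210827, minus strand). It ran from 19625 normalized counts in mouse 1 to 34289.7 in mouse 5, with a median of 28273 and a mean of 28007 ± 4770 (SD, n = 8). Mouse 1 was the lowest for Sqstm1, and mice 4, 5 and 8 were the highest, with 32787, 34289.7 and 30164 normalized counts. Mrnip on the opposite strand overlaps 17.3% of the exon bases of Sqstm1 and had a mean of 67.5 normalized counts.

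The 2 mitochondrial receptors differed in their spread. Bnip3, on chromosome 7 (138890836 to 138909519, minus strand), had normalized counts in mice 1 to 8 of 10961, 10545, 14437, 14211, 13283, 11061, 10099 and 13427, with a median of 12172 and a mean of 12253 ± 1760.3 (SD, n = 8). No mouse lay between 11061 and 13283, and the 4 mice above this gap (3, 4, 5 and 8) were also the 4 highest for Gabarapl1. Bnip3l, on chromosome 14 (66985239 to 67008877, minus strand), ranged from 2162 in mouse 7 to 2789.9 in mouse 3, with a median of 2551 and a mean of 2502 ± 232 (SD, n = 8).

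Counts of both receptors are uncertain, because near-identical pseudogenes are counted as separate genes. Of the 50-base stretches in Bnip3 transcripts, 47.2% also occur in transcripts of other genes, and the pseudogenes Gm16439 and Gm6532 had means of 1379.6 and 1229 normalized counts, or 11.3% and 10.0% of the Bnip3 mean. For Bnip3l the share was 20.8%, and Bnip3l-ps had a mean of 1028 normalized counts, or 41.1% of the Bnip3l mean. The share of Bnip3 does not come from pseudogenes alone. Gm45507 on the opposite strand overlaps 22.3% of the Bnip3 exon bases and had a mean of 4.56 normalized counts. AC160336.1, a noncoding RNA gene at a mean of 15.2, also shares stretches with Bnip3.

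Tfeb, the transcription factor, lies on chromosome 17 (47737030 to 47792419, plus strand). Its normalized count ran from 1078 in mouse 6 to 1597 in mouse 1, with a median of 1181 and a mean of 1238 ± 168 (SD, n = 8). Mouse 1 stood apart from the other 7 mice, whose highest value was 1314.

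**Figure D1:**
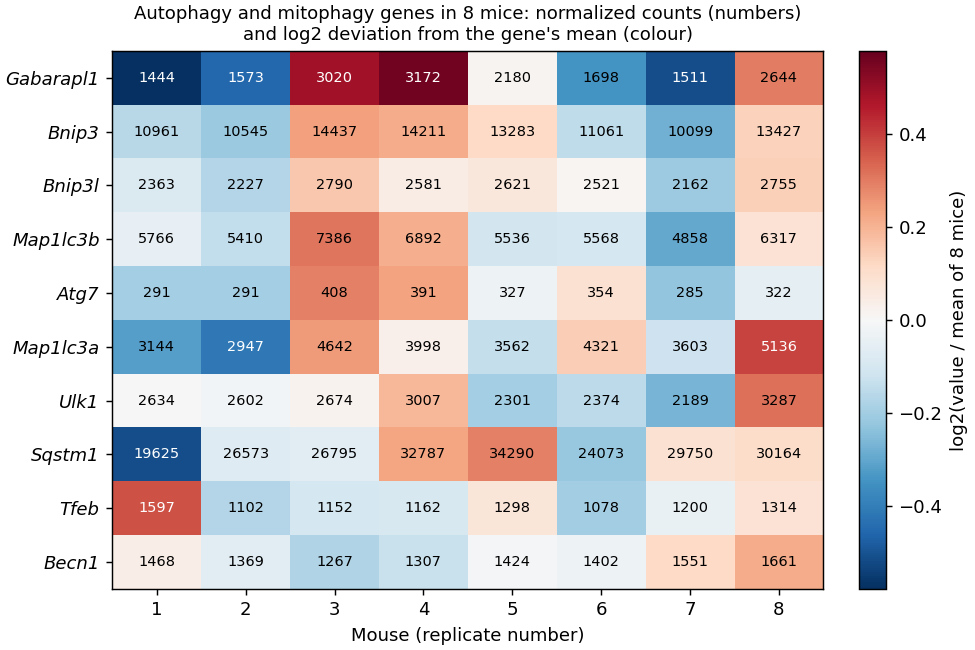
Normalized counts of the 10 autophagy and mitophagy genes (rows) in each of the 8 mice (columns), with colour for the log2 ratio of each value to the gene's mean over the 8 mice. In Gabarapl1, mice 3, 4 and 8 (3020.0, 3172 and 2644) stand above mice 1, 2, 6 and 7 (1444 to 1698), and Bnip3, Bnip3l and Map1lc3b are also above their means in mice 3, 4 and 8.

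The spread between mice was then set against that of genes of like abundance. edgeR's biological coefficient of variation, which estimates the spread between mice with counting error taken out, was above the trend for 3 of the 10 members (Gabarapl1, Map1lc3a and Sqstm1), and for 29% of all genes tested, so the count of members was near the background. For Gabarapl1 the biological coefficient of variation was 32.1%, against 16.7% on the trend, and higher than in 93.6% of all genes tested. For Map1lc3a it was 19.0% against 16.8% on the trend, and for Sqstm1 17.6% against 17.5%. The median coefficient of variation of normalized counts, with counting error included, was 14.1% over the members and 15.6% over all genes tested. The members were more abundant, with a median mean of 2568 normalized counts against 308. The median biological coefficient of variation was 13.7% over the members and 13.1% over all genes tested. With the counts scaled by library totals in place of the size factors, 6 of the 10 members were above the trend, against 30.8% of all genes.

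Levels were compared between genes per length, as normalized counts per kb of merged exons. In decreasing order the means ± SD over 8 mice were 8345 ± 1421 per kb for Sqstm1, 5409.7 ± 777 for Bnip3, 3318 ± 636 for Map1lc3a, 1071 ± 351 for Gabarapl1, 794 ± 111 for Map1lc3b and 648 ± 60.2 for Bnip3l. The 4 lower members were Ulk1 at 406 ± 56.6 per kb, Tfeb at 218 ± 29.5, Becn1 at 203 ± 18.2 and Atg7 at 47.9 ± 6.76. Sqstm1 and Bnip3, a receptor for ubiquitinated cargo and a receptor of mitochondria, were thus the most abundant transcripts per length, and each was above the next gene in the order in 8 of 8 mice. Tfeb was above Becn1 in 5 of 8 mice only and Gabarapl1 above Map1lc3b in 7 of 8, so these neighbours overlapped. Every other neighbour kept its order in 8 of 8 mice with this length. With the longest coding transcript, Tfeb stood at 529 per kb and Ulk1 at 505, with Tfeb higher in 4 of 8 mice, so the order of these 2 genes depended on the length too.

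**Figure D2:**
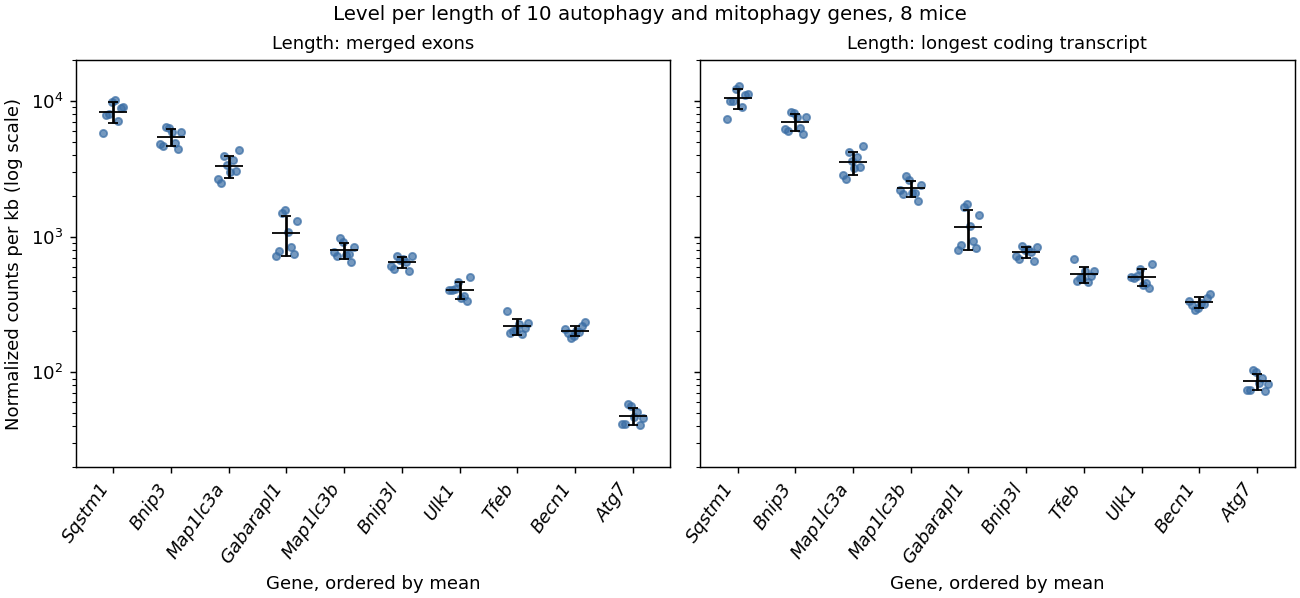
Normalized counts per kb (log scale) of the 10 genes in each mouse (points), with the mean and SD over 8 mice (bars), for the length of merged exons and for the length of the longest coding transcript. Sqstm1, Bnip3 and Map1lc3a lead and Atg7 is lowest with both lengths, whereas Map1lc3b is above Gabarapl1, and Tfeb above Ulk1, only with the transcript length.

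The paralogs were compared within each mouse, in an exact two-sided sign-flip permutation test of the log2 difference per kb over 8 mice, whose smallest p is 0.0078. Map1lc3a was above Map1lc3b by 2.05 ± 0.23 (SD, log2) in 8 of 8 mice, or 4.15-fold (exact p = 0.0078, adjusted over the 3 pairs 0.0117). Bnip3 was above Bnip3l by 3.05 ± 0.10 (SD, log2) in 8 of 8 mice, or 8.30-fold (exact p = 0.0078, adjusted 0.0117). Per kb of merged exons Gabarapl1 was 1.30-fold above Map1lc3b, a log2 difference of Map1lc3b over Gabarapl1 of -0.38 ± 0.31 (SD) in 7 of 8 mice (exact p = 0.0156, adjusted 0.0156), but with the longest coding transcript the difference was 0.99 in the other direction, in 8 of 8 mice. The merged exons of Map1lc3b span 7517 bases and its longest coding transcript 2633, and which of its transcripts were present was not analysed here. For the other 2 pairs the length changed the size and not the direction, to 0.63 for Map1lc3a over Map1lc3b and 3.18 for Bnip3 over Bnip3l (log2).

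Whether the members varied together between mice was examined with Pearson's r of log2(normalized count + 1) over the 8 mice and an exact two-sided permutation test of all pairings of the mice. Of the 45 pairs of members, 34 had a positive r, and the median r was 0.44, against -0.0035 between a member and any gene tested. Among the pairs, 11 passed an unadjusted exact permutation p of 0.05, all with a positive r, which is to be read against 10.6% of all 151295 pairs of a member and a gene in either direction and 5.75% with a positive r. After Benjamini-Hochberg adjustment over all those pairs, 0 member pairs passed, and the smallest adjusted exact permutation p was 0.256. Without mouse 3 the count of pairs was 7, against 7.97% of all pairs, and with library totals it was 23, against 22.8%. Without mouse 8 it was 16, of which 12 had a positive r, against 11.4%.

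The 11 pairs lay mostly in 1 set of genes. All 10 pairs among Map1lc3b, Gabarapl1, Bnip3, Bnip3l and Atg7 were in it, a set that was picked out after its values were seen, and the 11th pair was Map1lc3a with Bnip3l. Gabarapl1 and Bnip3 were the closest pair, with r = 0.96 (exact permutation p = 0.0013, adjusted 0.256). By ranks, Spearman's rho was 0.90 (exact permutation p = 0.0046). Leaving out each mouse in turn gave r between 0.95 and 0.98, and leaving out the 2 mice farthest from the median of Gabarapl1 gave 0.93. In this check of 2 members, the median was that of the gene named first. Mice extreme only in the other gene were kept. Bnip3 has a gap between 2 sets of 4 mice, and the relation within each set was not tested.

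Bnip3 and its paralog Bnip3l followed, with r = 0.90 (exact permutation p = 0.0017, adjusted 0.259). Their rho was 0.93 (exact permutation p = 0.0022), and omitting the 2 farthest mice left r at 0.82. Map1lc3b correlated with Gabarapl1 at r = 0.87 (exact permutation p = 0.0049, adjusted 0.304). Their rho was 0.71 (exact permutation p = 0.058), and omitting the 2 farthest mice left r at 0.66. Atg7 had r between 0.76 and 0.84 with the other 4 genes of the set. Of the 11 pairs, 6 passed the unadjusted threshold whichever mouse was left out, and the share of all pairs that did so is not given here. Read per gene, 4 of the 9 other members passed for Map1lc3b, Gabarapl1, Bnip3 and Atg7 each, 5 for Bnip3l and 1 for Map1lc3a. The shares of all genes that passed against them were 10.3% for Map1lc3b, 13.4% for Gabarapl1, 13% for Bnip3, 13.7% for Atg7, 10.6% for Bnip3l and 16.7% for Map1lc3a.

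Ulk1, Sqstm1, Becn1 and Tfeb had no pair past the unadjusted threshold with Pearson's r over all 8 mice. Ulk1 had a positive r with all 9 other members, from 0.08 with Sqstm1 to 0.69 with Map1lc3b. Of its pairs, 0 passed the unadjusted exact permutation test, where 4.97% of all genes did. For Ulk1 with Map1lc3b the exact permutation p was 0.054, and rho was 0.83 (exact permutation p = 0.015). With each library's trends on GC content and length removed, their r was 0.70 (exact permutation p = 0.046). This pair also passed in 2 of the 8 fits that left out 1 mouse. Sqstm1 also had 0 pairs, against 7.66% of all genes, with its highest r of 0.57 to Gabarapl1. Becn1 and Tfeb had 0 pairs each, against 13.3% and 2.25% of all genes. The r of Becn1 was negative with 5 members, the lowest being -0.65 with Atg7 (exact permutation p = 0.079), and the r of Tfeb was highest with Becn1, at 0.44 (exact permutation p = 0.27). These counts changed when 1 mouse was left out. Without mouse 8, Becn1 passed the unadjusted exact permutation test with 4 members, all with a negative r (-0.89 with Map1lc3b, -0.84 with Atg7, -0.81 with Gabarapl1 and -0.77 with Bnip3). All 4 belong to the set of genes that correlated with one another above. Without mouse 1, Sqstm1 passed with Tfeb (r = 0.76). Over all pairs of a member and a gene, 11.4% passed without mouse 8 and 9.17% without mouse 1. The shares of all genes that passed against Becn1 or Sqstm1 in these fits are not given here.

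**Figure D3:**
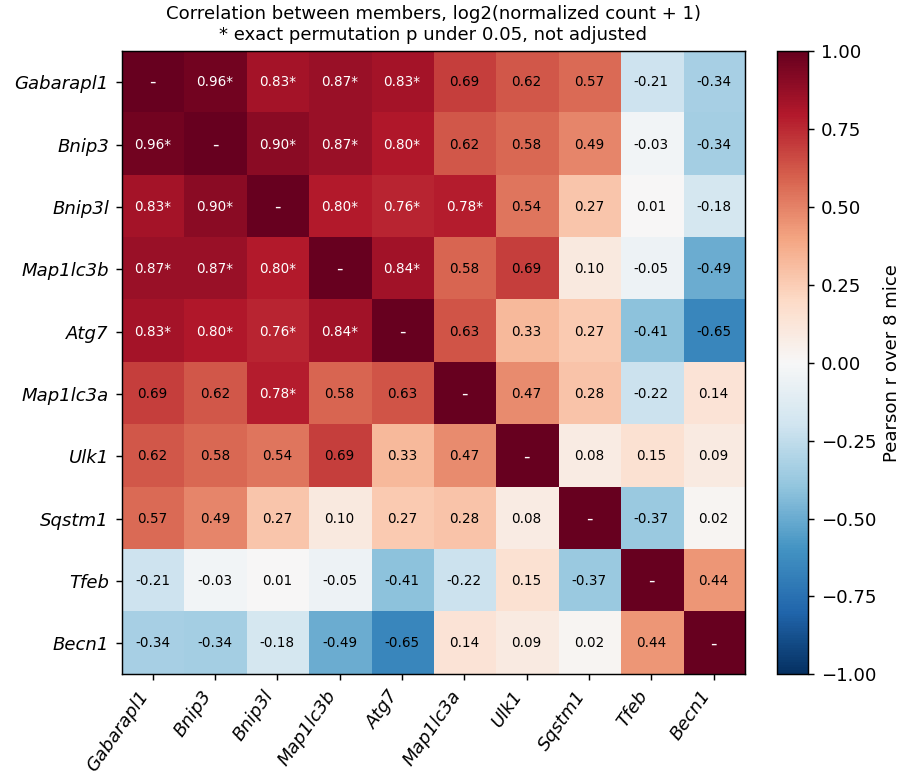
Pearson's r over 8 mice for each pair of the 10 genes, from log2(normalized count + 1), with an asterisk where the exact permutation p, not adjusted, was under 0.05. The 11 pairs with an asterisk join Gabarapl1, Bnip3, Bnip3l, Map1lc3b and Atg7, plus Map1lc3a with Bnip3l, whereas Ulk1, Sqstm1, Tfeb and Becn1 have none.

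A measure of the libraries moved with the same set. The share of counts taken by the 10 most abundant genes was highest in mouse 1 at 26.2% and lowest in mouse 3 at 18.8%. It correlated with Atg7 at r = -0.94 (exact permutation p = 0.0011) and with Gabarapl1 at r = -0.92 (exact permutation p = 0.0012). The ranks gave rho of -0.83 for Atg7 (exact permutation p = 0.015) and -0.93 for Gabarapl1 (exact permutation p = 0.0022). Omitting the 2 farthest mice left r at -0.91 and -0.89. Bnip3, Map1lc3b and Bnip3l had r of -0.90, -0.80 and -0.79, so 5 of the 10 members passed the unadjusted exact permutation test, against 15.2% of all genes. Over the family of 160 relations of a member to 1 of 16 library measures and marker scores, 20 passed unadjusted and 0 after adjustment, with the smallest adjusted exact permutation p at 0.0972. Once each gene's linear trend across mice on this top-gene share was removed, an alternative chosen after seeing the data, 2 of the 11 pairs still had a permutation p under 0.05. These were Gabarapl1 with Bnip3 (r = 0.79, permutation p = 0.016) and Bnip3 with Bnip3l (r = 0.71, permutation p = 0.046), and 2 others changed sign, Gabarapl1 with Atg7 and Bnip3 with Atg7. Values left after a fitted trend is removed are not freely exchangeable between mice. The 2 p-values are therefore approximate and can be too small. The part of this share in the co-variation was otherwise not tested, and the percent of all pairs that pass after its removal is not given here.

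The ubiquitin ligases of muscle atrophy were on a list of 2 genes, Trim63 (MuRF1) and Fbxo32 (atrogin-1), both present in every library with a summed level between 80752 and 144779 normalized counts. The score of the list passed the unadjusted exact permutation test with 4 of the 10 members, against 6.7% of all genes: Gabarapl1 (r = 0.88), Ulk1 (0.85), Map1lc3b (0.82) and Bnip3 (0.81). Trim63 ranged from 32456 normalized counts in mouse 1 to 60044 in mouse 4. With Gabarapl1 it had r = 0.97 (exact permutation p = 0.00094, adjusted 0.240). The rank correlation was 0.90 (exact permutation p = 0.0046), and r was 0.95 when the 2 farthest mice were omitted and 0.96 when the trend on the top-gene share was removed. Fbxo32 had r = 0.89 with Ulk1 (exact permutation p = 0.0033, adjusted 0.283). The rank correlation was 0.88 (exact permutation p = 0.0072), and omitting the 2 farthest mice left r at 0.85. Its r with Gabarapl1 was 0.67 (exact permutation p = 0.072). The difference between these correlations was not tested.

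Scores of muscle fibres and of other cell types were set beside the members in the same way. The score of 8 skeletal muscle genes (8 of 8 present, summed level 1770428 to 3482845 normalized counts) passed the unadjusted exact permutation test with 4 of the 10 members, against 10.8% of all genes. Becn1 had r = 0.80 with it, whereas Atg7, Gabarapl1 and Map1lc3b had -0.90, -0.77 and -0.76. When the 2 farthest mice were omitted these became 0.51, -0.57, -0.26 and 0.07. By ranks, Gabarapl1 had rho = -0.76 (exact permutation p = 0.037) and Map1lc3b rho = -0.52 (exact permutation p = 0.20), and the r of Gabarapl1 lay between -0.91 and -0.68 when each mouse was left out in turn. Myh4, the gene of the fastest myosin and the largest of the list, held between 3.30% and 6.39% of the counts and had r = -0.92 with Gabarapl1 (exact permutation p = 0.00084, adjusted over all pairs 0.238). With the trend on the top-gene share removed, the r of Myh4 with Gabarapl1 was -0.15. Myh4 is itself among the 10 most abundant genes, so this removal also takes out part of its own variation. The value therefore cannot tell whether the relation holds apart from the share. Slow fibre genes (5 of 5 present, 6583 to 15651) passed with Tfeb (r = 0.77) and Becn1 (r = 0.72), or 2 of 10 members against 4.54% of all genes, and the Tfeb value fell to 0.35 when the 2 farthest mice were omitted.

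Connective tissue and macrophage markers passed with no more members than the background gives. Fibroblast genes (8 of 8 present, 10294 to 19186 normalized counts) passed with Map1lc3a alone (r = -0.75), against 16.3% of all genes, as did tendon genes (5 of 6 above the minimum, Mkx below it, 905 to 6158; r = -0.75), against 14.5%. Omitting the 2 farthest mice left -0.37 and -0.32. Macrophage genes (9 of 9 present, 2516 to 6279) passed with Becn1 alone (r = -0.78), against 13.7%, and with the 2 farthest mice omitted r was -0.16. The slope of each library on GC content passed with Map1lc3a (r = 0.82) and Bnip3l (r = 0.69), against 12.8% of all genes. The 8 other measures passed with 0 members, against 9.42% of all genes for endothelium, 8.84% for adipocytes, 6.44% for denervation, 6.03% for blood, 2.75% for the recovered total, 2.6% for the size factor, 2.54% for Schwann cells and 1.7% for satellite cells. None of the marker genes was at 0 in all libraries, and the part of these measures in the members' levels was not tested.

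**Figure D4:**
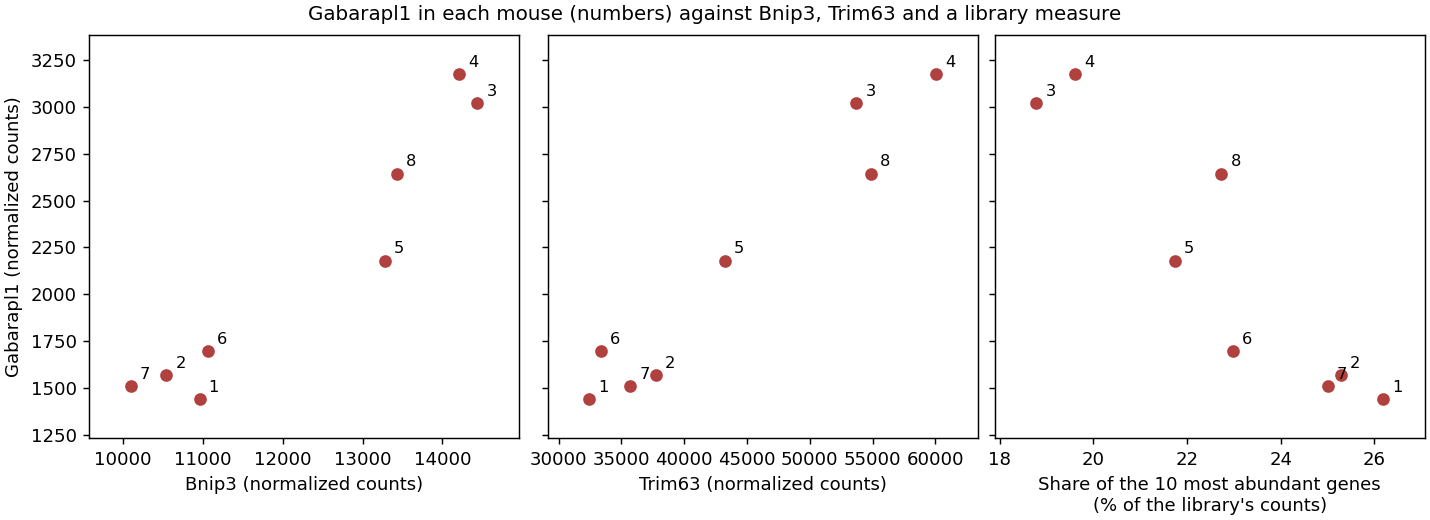
Normalized counts of Gabarapl1 in each of the 8 mice (numbered points) against Bnip3, against Trim63 (both in normalized counts) and against the share of each library's counts held by its 10 most abundant genes (percent). Mice 3, 4 and 8 are high in Gabarapl1, Bnip3 and Trim63, and r, computed with gene values as log2(normalized count + 1), is 0.96, 0.97 and -0.92 from left to right.

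The remaining machinery was followed in 55 further genes of 9 roles, all 55 of which were among the genes tested. Per kb of merged exons the most abundant were Lamp1, a lysosome membrane protein, at 6035 normalized counts and Pink1, the kinase that marks damaged mitochondria, at 5689. Both were in the range of Sqstm1 and Bnip3 per kb. The lowest was Tfe3, a transcription factor related to TFEB, at 28.8 per kb. Among the other ATG8 genes, Gabarap stood at 1879 per kb and Gabarapl2 at 831. Biological coefficients of variation were above the trend for 10 of the 55 genes, against 29% of all genes.

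By role, the ULK complex ran from Ulk2, a paralog of Ulk1, at 439 per kb to Atg101 at 155. The VPS34 complex, of which Beclin 1 is a subunit, ran from Nrbf2 at 306 to Pik3r4 at 43.7, and the lipid transfer and WIPI genes ran from Atg9a at 655 to Atg2b at 74.2. The genes of ATG8 conjugation, which act with ATG7, spanned a range like that of the VPS34 complex, from Atg4a at 321 per kb to Atg4c at 43.9. The further cargo receptors lay between Optn at 793 and Tollip at 318. Genes of fusion with the lysosome reached down to Plekhm1 at 114, and Foxo4 was the most abundant of the regulators at 920.3 per kb.

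Of the 550 pairs of a member with 1 of these genes, 80 passed the unadjusted exact permutation test (53 with a positive and 27 with a negative r), which is 14.5% against 10.6% of all pairs, and 0 passed after adjustment. Of the 55 genes, 14 passed it against 3 or more members, where 13.5% of all genes tested did. In 10 of the 14 every such r was positive, in 3 every one was negative, and Uvrag, a subunit of the VPS34 complex, had both. Phb2, an inner mitochondrial membrane protein that binds LC3, passed with 6 members (r from 0.71 with Map1lc3b to 0.84 with Bnip3l and Atg7). Atg13, the partner of ULK1, had r = 0.94 with Gabarapl1 and 0.94 with Bnip3, and Foxo3, a forkhead factor, had r = 0.85 with Map1lc3b and 0.76 with Gabarapl1.

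In the pairs that passed, every r was also positive for the cargo receptors Nbr1 and Tollip and the ATG8 genes Gabarap and Gabarapl2. The same held for the membrane genes Wipi2 and Zfyve1 and the fusion gene Vamp8. Nbr1, which resembles p62, was closest to Sqstm1 (r = 0.87). For 3 genes every r that passed was negative. They were Ulk2 (r = -0.90 with Bnip3 and -0.88 with Gabarapl1), the mitophagy receptor Fundc1 (-0.90 with Bnip3) and Stx17, the syntaxin of autophagosomes (-0.83 with Gabarapl1). Genes of 1 pathway thus had r of opposite sign with the same members, as for Ulk2 and Atg13.

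**Figure D5:**
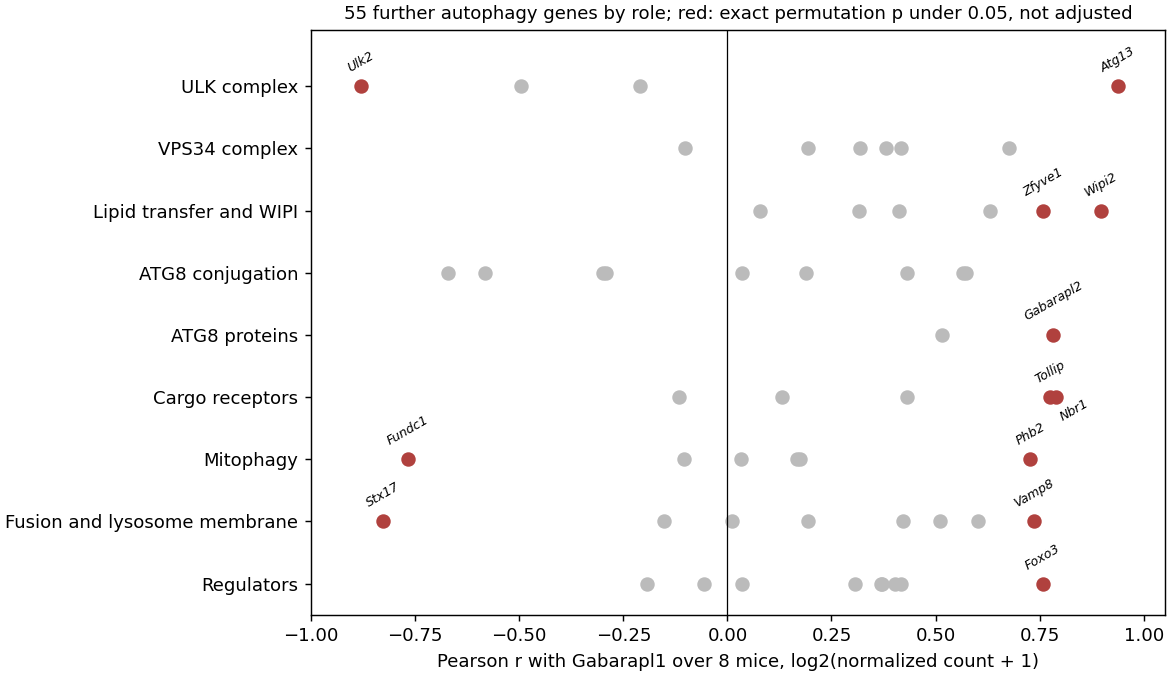
Pearson's r with Gabarapl1 over 8 mice, on log2(normalized count + 1), for 55 further autophagy genes (points) in 9 roles, in red and named where the unadjusted exact permutation p was under 0.05. The 12 red genes, against 13.4% of all genes tested, are 9 at positive r, up to Atg13 at 0.94, and 3 at negative r, down to Ulk2 at -0.88.

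The genes whose levels were most like each member over the 8 mice are given by r alone. For Gabarapl1 they were Cnppd1 (r = 0.98) and Pnpla7 (0.98), for Bnip3 Zfp839 (0.97) and Cd2bp2 (0.97), and for Map1lc3b Slc10a6 (0.99) and Klhl21 (0.96). Sqstm1 was most like Rab5a (0.98), a small GTPase of early endosomes, and Psmb3 (0.98), a proteasome subunit. Ulk1 was most like Eif4a2 (0.97) and Clk1 (0.94), Becn1 like Paip1 (0.97) and Cnih1 (0.96), Tfeb like Pik3r5 (0.94) and Foxo4 (0.91), and Atg7 like Dera (0.98) and Nubp1 (0.98). Map1lc3a was most like Ilkap (0.98) and the pseudogene Rpl19-ps11 (0.98), and Bnip3l like the pseudogene Rpl7a-ps11 (0.98). Out of 15135 genes, the closest one had r between 0.94 and 0.99 for every member.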

How the data were processed

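RNA from skeletal muscle of 8 mice was sequenced as poly-adenylated mRNA on an Illumina NextSeq platform. The authors trimmed and checked the reads (fastp and FastQC, per the labels), mapped them with STAR to GRCm38.p6, counted them per gene with summarizeOverlaps and normalized with DESeq2. The annotation release, use of strand and handling of reads shared by genes are not given in the sources used here. The values are a signal that the authors deposited after dividing each count by its library's size factor, since 100% of nonzero values were whole multiples of 1 read within 0.01. Recovered counts (23985356 to 33012497 per library) gave depth, filters and other scalings, and reads carry no molecular identifiers.

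Members and gene lists were chosen with earlier results of these data known. Named genes are the members, in each pathway role the highest and lowest per kb and those with p under 0.05 against 3 or more members, and the 2 most like each member (no Gm or Rik names), of which 2 genes are not reported here. Trim63, Fbxo32 and Myh4 were taken from the marker lists. Of the identifiers, 55227 were found in GENCODE M21. Tests used genes with 10 counts or more in each library, on log2(normalized count + 1), with Benjamini-Hochberg adjustment over all pairs of a member and a gene. Each sample is 1 mouse. Each p-value is the share of pairings of mice, or of sign flips, that give a result at least as strong as the observed. Alternatives were TMM factors, library totals, a pseudocount of 5, a mean of at least 1, Spearman correlation, removal of GC content and length trends, transcript length, DESeq2 dispersions and leaving out each mouse. Scripts were tested on simulated data. R 4.3.3, edgeR 4.0.16, DESeq2 1.42.0, Python 3.11.15, numpy 2.4.6 and pandas 2.3.3 were used. RefSeq gave promoters, and Map1lc3a, Bnip3l and Becn1 were not matched.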

Additional observations from a re-analysis of the deposited data

Results flagged for a closer look

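Tfeb in mouse 1 had 1597 normalized counts, and the next highest mouse had 1314. This gap was 0.546 of the whole range of the 8 mice, above Dixon's critical value for 8 values. It was the only one of the 10 members flagged in this way, and chance flags about 5% of such groups. Mouse 1 was also the lowest mouse for Sqstm1 and Gabarapl1 and had the largest share of counts in the 10 most abundant genes. It had the highest scores for slow fibre, skeletal muscle and tendon genes too. Tfeb had r = 0.77 with the slow fibre score, and 0.35 when the 2 farthest mice were omitted. The part of these in the Tfeb value was not tested.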

How the results depend on the processing

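The count of 11 member pairs was 23 with library totals, against a background of 22.8%, and from 7 (without mouse 3, background 7.97%) to 16 (without mouse 8, 12 of them with a positive r, background 11.4%) when 1 mouse was left out. It stayed between 10 and 14 with TMM factors, a pseudocount of 5, a mean of at least 1, Spearman correlation and after trends on GC content and length were removed. The backgrounds of these settings lay between 9.10% and 10.8% of all pairs. After adjustment, 0 pairs passed in every one of the fits named here. The number of members above the trend of the biological coefficient of variation was 6 with library totals, against 30.8% of all genes, and 2 to 3 without 1 mouse, against 28.0% to 29.6%. The log2 difference per kb of Map1lc3b over Gabarapl1 turned from -0.38 to 0.99 with the longest coding transcript, and the order of these 2 genes is therefore not settled. With the trend on the top-gene share removed, r turned to -0.34 for Gabarapl1 with Atg7 and to -0.32 for Bnip3 with Atg7. Of 165 values of r of the 11 pairs under all alternatives, 140 kept their sign and a permutation p under 0.05. The 11 pairs were picked because they passed in these same mice, which the alternatives reuse. This count therefore cannot show that the relations are reliable, and the share for other pairs that passed is not given here. No paired analysis was possible because the 8 mice form a single group, so there was no other group to pair them with. The paralog tests pair 2 genes within a mouse. Depth limits Atg7 most among the members, with 258 to 491 counts per library.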
